A study of Mus musculus with 8 samples.

Results

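A pair of liver cell populations from the same injury were set side by side: b-gal+ F4/80high cells, a Kupffer cell gate, and EpCAM-positive cells, the bile duct gate. They are 4 of the 8 libraries of the series, 2 libraries of each population, chosen by their sample labels. All mice carried the Lgr5-LacZ transgene on a mixed C57BL/6 and CBA background. They received 1 injection of carbon tetrachloride (CCl4), a toxin that kills hepatocytes around the central vein, at 1 µl per g of body weight in rapeseed oil, and livers were taken 6 days later. The mice were 10 to 12 weeks old according to the labels of the samples, and the text of the series allows ages from 7 weeks up. Libraries of uninjured or transgene-free mice were not analysed here, so that every value belongs to the injured liver of Lgr5-LacZ mice. The b-gal+ cells were sorted after collagenase and pronase dissociation by a fluorescein-releasing β-galactosidase substrate together with an F4/80 antibody, and the EpCAM-positive cells by an EpCAM antibody. Each library pools the sorted cells of 2 mice, and p-values therefore measure the spread between such pools. The b-gal- F4/80high cells and the hepatocytes, which make up the other 4 libraries, entered the fit for the spread between replicates and were not pooled with either population.

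Kupffer cells are the resident macrophages of the liver sinusoid. They clear particles, dying red cells and complement-coated material from portal blood, and they digest the load in lysosomes, where β-galactosidase (Glb1) is one of the hydrolases. Cholangiocytes line the bile ducts. They are polarised epithelial cells held together by tight junctions and desmosomes, they carry a primary cilium, and they modify bile by transporting ions, water, glucose and bile acids. Both populations exchange signals after injury, among them colony-stimulating factor 1, osteopontin, Notch ligands and growth factors.

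The recovered reads numbered 21003933 and 23066796 in b-gal+ replicates 1 and 2, and 23204444 and 18007898 in EpCAM-positive replicates 1 and 2. Between 15448 and 16130 genes were detected per library. Levels are read counts scaled by TMM to CPM (reads of a gene relative to all reads of its library), and a pair of levels always gives replicate 1 and then replicate 2. Differences are on the log2(CPM + 0.5) scale, b-gal+ minus EpCAM-positive, with the standard error of the fit and n = 2 libraries a group. A gene was called when its limma p-value, adjusted over the 14404 genes tested, was under 0.05. On this scale 3 reads are worth 0.0912 to 0.134 CPM, depending on the library. Reads from LacZ stood at 0 and 0.161 CPM in b-gal+ and at 0 and 0.337 CPM in EpCAM-positive cells, and Lgr5 at 0 and 0.201 CPM against 0.213 and 0 CPM. That is 0 to 9 reads per library for LacZ and 0 to 7 for Lgr5, and neither was called (adjusted p = 0.836 and 0.988). In bulk libraries fewer cells of a type and less RNA per cell cannot be told apart.

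The marker genes separated the populations as labelled. Clec4f, the galactose-binding lectin that marks Kupffer cells (chr6:83644542-83656116, GRCm38), stood at 8530.1 and 10238 CPM in b-gal+ cells and at 77.5 and 10.5 CPM in EpCAM-positive cells. The log2 difference was 8.32 ± 0.79, a 319-fold higher level, with an adjusted p of 0.00153. Vsig4, a complement receptor of tissue macrophages (chrX:96247201-96293438), stood at 2176 and 2141 CPM against 19.2 and 2.24 CPM, and its log2 difference was 8.20 ± 0.79 (adjusted p = 0.00156). Neither gene's libraries overlapped between the populations, which held for 31.7% of all tested genes with b-gal+ cells higher and for 34.4% with b-gal+ cells lower. Epcam, the adhesion molecule used for the sort (chr17:87635979-87651127), stood at 0 and 0.362 CPM in b-gal+ cells and at 88.5 and 214 CPM in EpCAM-positive cells, a log2 difference of -7.72 ± 0.50 (adjusted p = 0.000552). Krt19, the bile duct keratin (chr11:100140810-100145926), stood at 1.30 and 0.483 CPM against 28.4 and 112 CPM, a log2 difference of -5.42 ± 0.66 (adjusted p = 0.00239). In every one of these markers the b-gal+ pair lay closer together, as a ratio, than the EpCAM-positive pair or was near 0.

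**Figure D1:**
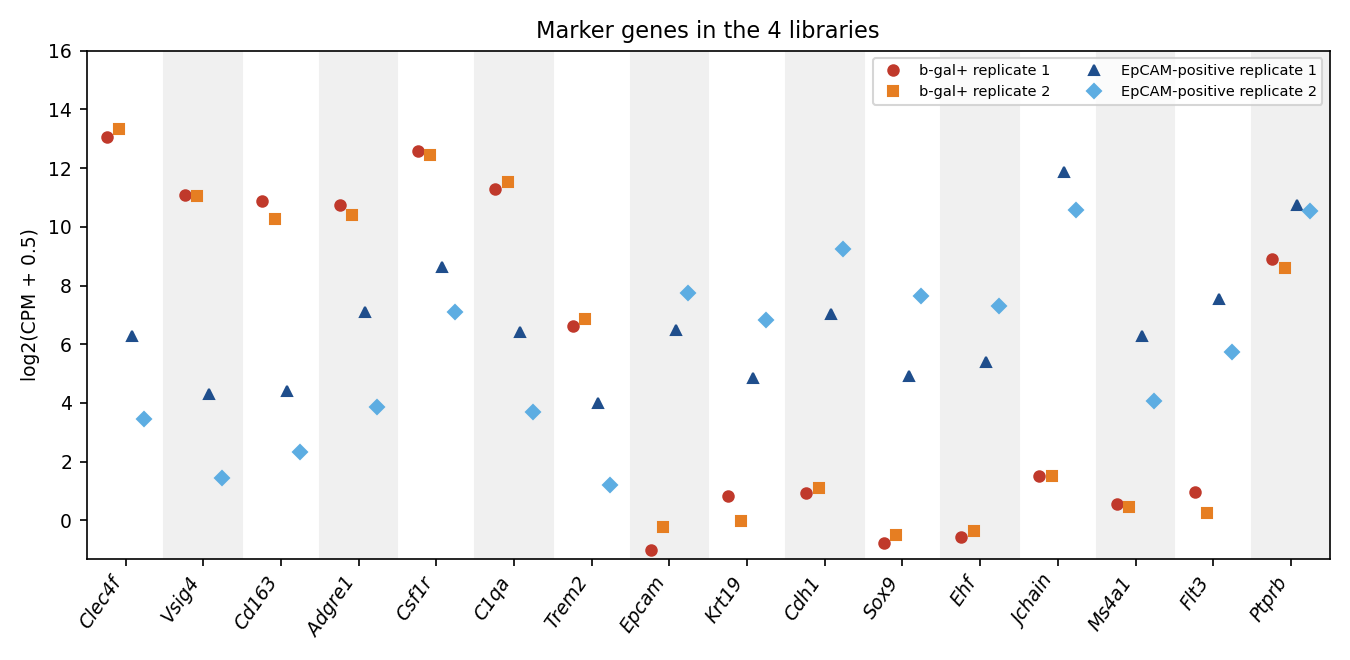
Levels of 16 marker genes as log2(CPM + 0.5), 1 point per library. Macrophage genes from Clec4f to Trem2 are high in both b-gal+ libraries, the duct genes from Epcam to Ehf are near the bottom of the axis there, and Jchain, Ms4a1 and Flt3, genes of other immune cells, are also higher in the EpCAM-positive libraries. Ptprb, an endothelial phosphatase, is present in all 4 libraries.

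Over all genes tested, 2111 were higher in b-gal+ cells (14.7%) and 2574 were lower (17.9%), 32.5% of the 14404 genes in all. At a difference of at least 2-fold the counts were 1341 higher (9.31%) and 2282 lower (15.8%). The median log2 difference over all genes tested was -0.03. Under the scaling implied by the deposited values that median moved to -0.33, and the split of calls turned to 1285 higher and 3741 lower, so that 25.6% of calls were higher in place of 45.1%. Without b-gal+ replicate 1 the counts were 1108 higher and 1612 lower, and without b-gal+ replicate 2 they were 926 and 1027. Of the called genes, 813 higher and 980 lower ones kept their call whichever of the 8 libraries was left out, and none of the called genes changed direction in the 18 alternatives that were run.

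**Figure D2:**
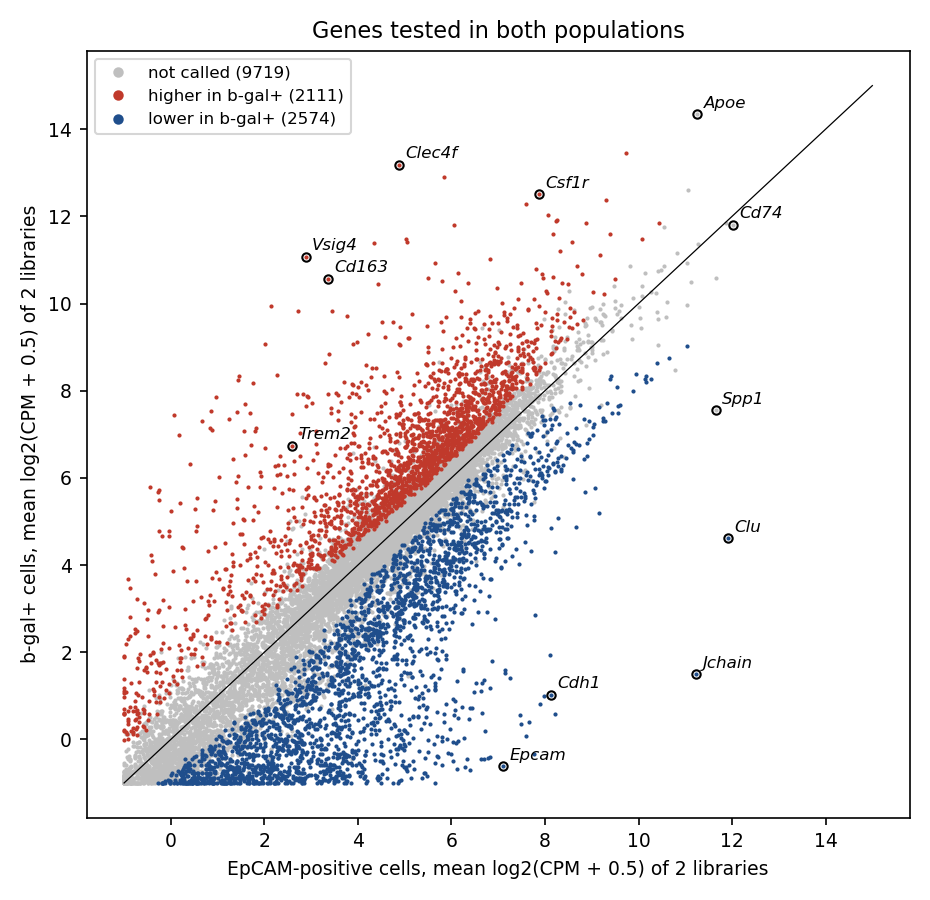
Mean log2(CPM + 0.5) of the 2 b-gal+ libraries (vertical) against the 2 EpCAM-positive libraries (horizontal) for the 14404 genes tested, with the line of equal level. The 2111 genes called higher and 2574 called lower lie on either side, Clec4f and Vsig4 far above the line, Epcam, Cdh1, Clu and Jchain far below it, while Apoe, Cd74 and Spp1 were not called.

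Receptors and secreted proteins of resident macrophages were high in b-gal+ cells. Of the 22 tested genes of Kupffer cell identity, 20 were called higher and none lower, against a background of 14.7% of genes called higher, and the median log2 difference of the list was 6.03. The count was also 20 without each of the 8 libraries in turn. C6, a component of the terminal complement complex, stood at 1029 and 956 CPM in b-gal+ cells and at 10.3 and 1.31 CPM in EpCAM-positive cells. Cd163, the scavenger receptor for haptoglobin-bound haemoglobin, stood at 1873 and 1237 CPM against 20.8 and 4.52 CPM, 147-fold higher (log2 difference 7.20 ± 0.66, adjusted p = 0.00138). Fcna, a ficolin that binds microbial sugars, stood at 2854 and 2521 CPM against 34.6 and 11.3 CPM. None of these overlapped, and each EpCAM-positive pair had its higher value in replicate 1.

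Kcna2, a voltage-gated potassium channel subunit, stood at 228 and 238 CPM in b-gal+ cells and at 2.43 and 0.785 CPM in EpCAM-positive cells (log2 difference 6.91 ± 0.41, adjusted p = 0.000552). Pcolce2, an enhancer of procollagen processing, stood at 185 and 164 CPM against 1.67 and 0 CPM. Siglec1, the sialic acid receptor of tissue macrophages, stood at 939 and 872 CPM against 22.2 and 1.42 CPM (7.10 ± 0.97, adjusted p = 0.00319). Cd5l, a secreted scavenger-family protein, and Folr2, a folate receptor of resident macrophages, were 133-fold higher each, with log2 differences of 7.06 ± 1.09 and 7.06 ± 1.06. The standard errors of Cd5l, Folr2 and Siglec1, were accompanied by EpCAM-positive pairs that ran from 213 to 14.8, from 13.6 to 0.636 and from 22.2 to 1.42 CPM. These 3 genes lost the call in an edgeR fit of only the 4 libraries, with adjusted p of 0.0703, 0.0605 and 0.0531. The 2 members of the identity list that were not called were Cdh5, an adhesion molecule that sinusoidal endothelium also makes, at 1142 and 794 CPM against 569 and 431 CPM (adjusted p = 0.0951, or 0.0406 with DESeq2), and Cd38, an NAD-consuming ectoenzyme, at 379.5 and 396 CPM against 214 and 247 CPM (adjusted p = 0.117).

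The pan-macrophage genes were higher as a group. All 20 tested members of the macrophage core list were called, with a median log2 difference of 3.49. Csf1r, the receptor for colony-stimulating factor 1, stood at 6142 and 5537 CPM in b-gal+ cells and at 401 and 136 CPM in EpCAM-positive cells (4.64 ± 0.54, adjusted p = 0.00208). C1qa, C1qb and C1qc, the chains of the complement starter C1q, were 81.6-fold, 53.8-fold and 88.1-fold higher. Adgre1, which encodes F4/80 and was used for the sort, stood at 1731 and 1361 CPM against 138 and 14.2 CPM (5.09 ± 0.96, adjusted p = 0.00846). Its EpCAM-positive values thus differed between the replicates by more than its b-gal+ values, and the call was lost in the edgeR fit of the 4 libraries (adjusted p = 0.0748). Ptprc, the leukocyte antigen CD45, stood at 897 and 954 CPM against 698 and 221 CPM and was not called (adjusted p = 0.116), but it was called higher without EpCAM-positive replicate 1 (0.00732). The count for the core list was 11 without either of the b-gal+ libraries, and 10 with edgeR on the 4 libraries.

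Transcription factors of macrophages followed with smaller differences. Of 20 tested, 13 were called higher and none lower (median 2.10). Spic, a factor of red pulp and liver macrophages that handle haem, stood at 191 and 139 CPM against 5.44 and 0.449 CPM, 69.0-fold higher (6.11 ± 0.81, adjusted p = 0.0029). Nr1h3, the oxysterol receptor LXRα that maintains Kupffer cell identity, stood at 459.6 and 457 CPM against 16.3 and 5.91 CPM (5.47 ± 0.44, adjusted p = 0.00101). All b-gal+ values of these factors lay above all EpCAM-positive values. Rxra, the partner of LXRα, and Mitf, a factor that drives lysosomal genes, were 7.42-fold and 5.79-fold higher.

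Other members of the list are also used by B cells, dendritic cells or granulocytes. Spi1, the myeloid and B cell factor PU.1, stood at 432 and 420 CPM against 142 and 42.5 CPM (2.44 ± 0.65, adjusted p = 0.0287), and its call was lost in 6 alternatives, among them without EpCAM-positive replicate 2 and without either b-gal+ library, with adjusted p up to 0.113. Irf8, a factor of monocytes, dendritic cells and B cells, stood at 293 and 394 CPM against 504 and 122 CPM, so that the EpCAM-positive pair enclosed the b-gal+ pair. Ikzf1, a lymphoid and myeloid factor, stood at 209 and 238 CPM against 175 and 56.0 CPM, and Irf5 at 241 and 266 CPM against 170.3 and 62.2 CPM. Irf8, Ikzf1 and Irf5 were not called (adjusted p = 0.61, 0.119 and 0.0851). Without EpCAM-positive replicate 1 all 3 were called higher, with limma adjusted p of 0.00831, 0.00488 and 0.0113.

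Lysosomal hydrolases were higher in b-gal+ cells in 24 of 30 tested members, none was lower, and the median log2 difference was 1.85. Acp5, a tartrate-resistant acid phosphatase, stood at 659 and 746 CPM in b-gal+ cells and at 53.5 and 15.8 CPM in EpCAM-positive cells (4.56 ± 0.52, adjusted p = 0.00202). Ctsc, a dipeptidyl peptidase that activates serine proteases, stood at 2401 and 1779.7 CPM against 221 and 58.3 CPM (4.18 ± 0.67). Ctsb, an endolysosomal cysteine protease, stood at 11743 and 10804 CPM against 1233 and 587 CPM (3.73 ± 0.56, adjusted p = 0.00413, up to 0.0677 in fits of only the 4 libraries). The libraries of both populations thus held these transcripts, unlike the duct genes described further on, which were near absent in b-gal+ cells. The EpCAM-positive libraries also held macrophage core transcripts, with list sums of 5427 and 1499.5 CPM. The part of these in the hydrolase levels was not tested. Fewer hydrolases were called when only the 4 libraries were fitted (14), without b-gal+ replicate 1 (14) and with edgeR on the 4 libraries (12).

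Glb1 itself, the gene of lysosomal β-galactosidase, stood at 136 and 80.9 CPM in b-gal+ cells and at 53.4 and 41.3 CPM in EpCAM-positive cells. That is 2.22-fold higher (1.15 ± 0.28, adjusted p = 0.0216), less than the median of the hydrolase list. The libraries did not overlap, but the b-gal+ pair differed by more than the gap between 80.9 and 53.4 CPM. The call was lost in 5 alternatives (fits of the 4 libraries by limma and edgeR, scaling as deposited, and without EpCAM-positive replicate 2 or b-gal+ replicate 1), with adjusted p up to 0.104. Psap, the precursor of the saposins, stood at 6509.7 and 5899 CPM against 3542 and 1275 CPM and was not called (adjusted p = 0.107), nor was Gusb, β-glucuronidase, at 309 and 284 CPM against 177 and 57.6 CPM (adjusted p = 0.0634). DESeq2 called both higher (0.0184 and 0.0395), as did the fit without EpCAM-positive replicate 1 (0.025 and 0.00746).

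The series title names TREM2, a lipid-sensing receptor of macrophages. Trem2 stood at 96.9 and 117 CPM in b-gal+ cells and at 15.4 and 1.80 CPM in EpCAM-positive cells, a 17.7-fold difference (4.14 ± 1.22, adjusted p = 0.0408). Its EpCAM-positive pair differed more than its b-gal+ pair, and the call was lost in 9 alternatives, with adjusted p up to 0.17. These included leaving out EpCAM-positive replicate 2, either b-gal+ library or either hepatocyte library. Of 27 tested genes of TREM2-positive lipid-associated macrophages, 13 were called higher and 2 lower (median 2.26), and 7 were called higher without either of the b-gal+ libraries or with edgeR on the 4 libraries. Atp6v0d2, a subunit of the vacuolar proton pump, stood at 27.8 and 70.6 CPM against 0.729 and 0.0748 CPM (5.74 ± 0.89, adjusted p = 0.00454). Gpnmb, a glycoprotein of lysosome-rich macrophages, stood at 688 and 1187 CPM against 49.1 and 1.87 CPM (6.38 ± 1.96, adjusted p = 0.0459), and its call was lost in 9 alternatives, without the same 5 libraries among them, with adjusted p up to 0.198.

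Members of that list did not all point to b-gal+ cells. Itgax, the integrin CD11c of dendritic cells and some macrophages, was lower, at 43.7 and 40.2 CPM against 336 and 129 CPM (adjusted p = 0.0227), and lost the call without EpCAM-positive replicate 1 and without either b-gal+ library (up to 0.112). Spp1, which encodes osteopontin and appears also in the duct and ligand lists, stood at 655 and 53.5 CPM in b-gal+ cells and at 1837 and 5686 CPM in EpCAM-positive cells. The groups did not overlap, yet the b-gal+ pair differed so widely that the difference of -4.10 ± 1.79 was not called (adjusted p = 0.127). Apoe, the lipoprotein ligand, stood at 16485 and 26123 CPM against 2378 and 2511 CPM (adjusted p = 0.0901), and Lgals3, a galactose-binding lectin, at 442 and 367 CPM against 111 and 25.2 CPM (adjusted p = 0.076). Neither was called by limma. Apoe was called higher by DESeq2 and by edgeR (adjusted p = 3.29e-15 and 0.0415), and Lgals3 by DESeq2 (0.0254) and without EpCAM-positive replicate 1 (0.0492).

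Iron and lipid handling genes were higher together in b-gal+ cells. Of 20 tested genes of iron and haem recycling, 14 were called higher and 1 lower (median 2.46). Slc40a1, the iron exporter ferroportin, stood at 5457 and 4547 CPM against 239 and 157 CPM (4.68 ± 0.32, adjusted p = 0.000607), and Hmox1, which breaks down haem, at 2796 and 1378 CPM against 98.2 and 25.2 CPM (5.29 ± 0.71). Slc11a1, the phagosomal metal transporter, was 33.9-fold higher. The lower gene was Cp, ceruloplasmin, the secreted ferroxidase, at 39.5 and 32.7 CPM against 259 and 1239 CPM (-3.96 ± 0.63, adjusted p = 0.00491). Exporter and haem-degrading enzyme were thus high in b-gal+ cells and the secreted oxidase in EpCAM-positive cells. Of 17 LXR targets and cholesterol efflux genes, 12 were higher and none lower (median 2.47), among them Pltp, the phospholipid transfer protein, at 794 and 724 CPM against 45.3 and 15.1 CPM, and Lpl, lipoprotein lipase, at 984 and 843 CPM against 97.9 and 90.6 CPM.

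Complement genes were called in both directions, beside 14.7% of all genes tested called higher and 17.9% lower. Of 24 tested, 11 were called higher in b-gal+ cells and 5 lower (median 0.67). The C1q chains, C6 and Vsig4 were on the b-gal+ side. Clu, clusterin, which blocks the terminal complex, stood at 27.7 and 20.8 CPM in b-gal+ cells and at 1729 and 8729.5 CPM in EpCAM-positive cells, 159-fold lower in b-gal+ cells (-7.31 ± 0.68, adjusted p = 0.00146). Cd59a, a membrane inhibitor of the same complex, stood at 19.3 and 17.0 CPM against 61.9 and 53.8 CPM (-1.65 ± 0.15, adjusted p = 0.00129). Between these 2 populations, a component of the terminal complex was higher in b-gal+ cells, and these 2 inhibitors in EpCAM-positive cells. Cd59a stood at 124 and 109 CPM in b-gal- cells and at 119 and 123 CPM in hepatocytes, above both EpCAM-positive libraries. Clu stood at 64.6 and 79.3 CPM in b-gal- cells and at 4631 and 3166 CPM in hepatocytes. A higher level of Cd59a than in b-gal+ cells was therefore not particular to the EpCAM gate.

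MHC class II genes showed no common direction: 3 of 15 were called higher, 2 lower (median -0.22). These counts were near the shares of all genes tested, 14.7% called higher and 17.9% called lower. Cd74, the invariant chain, stood at 1988 and 6469 CPM in b-gal+ cells and at 6547 and 2648 CPM in EpCAM-positive cells, and H2-Aa, a classical class II chain, at 539 and 2057 CPM against 2494 and 979 CPM. The libraries of both genes overlapped (adjusted p = 0.835 and 0.575). H2-Oa and H2-Ob, the chains of the peptide-loading modulator H2-O, which B cells and dendritic cells make, were lower in b-gal+ cells. H2-Ob stood at 2.10 and 3.02 CPM against 205 and 97.8 CPM (-5.56 ± 0.48, adjusted p = 0.00123), and H2-Oa at 0.805 and 0.804 CPM against 68.0 and 25.8 CPM (-5.02 ± 0.54). In the interferon response list, 13 of 28 were called higher and none lower (median 0.74). Oas2, an RNA sensor enzyme, stood at 176 and 337 CPM against 12.2 and 7.70 CPM (4.58 ± 0.34, adjusted p = 0.000747), and Irf7, the amplifier of type I interferon, at 232 and 382 CPM against 55.2 and 45.0 CPM. That count fell to 6 in a limma or edgeR fit of only the 4 libraries and without b-gal+ replicate 2, and to 8 under the deposited scaling.

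On the epithelial side many genes were near 0 in b-gal+ cells. Of 32 tested genes of cholangiocyte identity, 29 were called lower in b-gal+ cells and none higher, against 17.9% of all genes called lower, and the median log2 difference was -5.70. In 3 members both b-gal+ libraries had 0 reads, and with these at their bound the median was -5.95. Tm4sf4, a tetraspanin-like membrane protein, stood at 0.447 and 1.85 CPM in b-gal+ cells and at 131 and 674 CPM in EpCAM-positive cells (-7.64 ± 0.90, adjusted p = 0.00217). Scara3, a scavenger receptor-like protein, stood at 0.268 and 0.322 CPM against 90.0 and 522 CPM, 274-fold lower. Sorbs2, an actin-linked adaptor, stood at 0.403 and 0.724 CPM against 76.9 and 480 CPM, and Lurap1l at 0.268 and 0.201 CPM against 45.4 and 236 CPM. In each of these genes EpCAM-positive replicate 2 was the higher library.

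Cell contact genes were lower in b-gal+ cells almost throughout. Of 30 genes of tight and adherens junctions and polarity, 28 were called lower and 1 higher (median -3.68, or -3.87 with genes at 0 at their bound), and 17 were called lower without b-gal+ replicate 2. Cdh1, E-cadherin, stood at 1.43 and 1.65 CPM against 129 and 612 CPM (-7.11 ± 0.63, adjusted p = 0.00129). Cldn3, a claudin of tight junctions, stood at 0.268 and 0.161 CPM against 27.5 and 151 CPM, and Cgn, cingulin, at 0.134 and 0.241 CPM against 17.9 and 135 CPM. Cldn4 had 0 reads in both b-gal+ libraries and 19.4 and 125 CPM in EpCAM-positive cells, at least 538-fold higher there than 3 reads in a b-gal+ library would be. Of 17 keratins and desmosome genes, 15 were lower and 1 higher (median -4.97). Dsg2, a desmosomal cadherin, stood at 0.581 and 1.13 CPM against 83.8 and 486 CPM (-7.25 ± 0.77), and Dsp, desmoplakin, at 0.850 and 1.09 CPM against 78.0 and 394 CPM. The exceptions were Pkp4 and Ctnnd1, armadillo proteins of cell contacts. Pkp4 stood at 190.3 and 213 CPM in b-gal+ cells against 33.5 and 105 CPM (1.76 ± 0.46, adjusted p = 0.0274), and Ctnnd1 at 548 and 571 CPM against 243 and 393 CPM (adjusted p = 0.0378). The call of Pkp4 was lost in 7 alternatives and that of Ctnnd1 in 11, without either b-gal+ or either hepatocyte library in both genes, with adjusted p up to 0.14 and 0.179.

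Bile-modifying transporters were called more often lower than higher in b-gal+ cells. The shares of all genes tested were 17.9% lower and 14.7% higher. Of 25 tested, 11 were called lower in b-gal+ cells and 3 higher (median -1.07). Slc5a1, the sodium-coupled glucose transporter, stood at 0.0447 and 0.563 CPM in b-gal+ cells and at 37.4 and 338 CPM in EpCAM-positive cells (-7.22 ± 0.98, adjusted p = 0.00309). Atp1b1, the beta subunit of the sodium pump, stood at 1.48 and 1.53 CPM against 126 and 495 CPM, and Slc4a4, a sodium bicarbonate cotransporter, at 0.805 and 0.523 CPM against 14.6 and 66.9 CPM. The gene called higher with the largest difference was Abcc3, a basolateral exporter of bile acid and bilirubin conjugates, at 853 and 902 CPM against 60.0 and 134 CPM (3.28 ± 0.43, adjusted p = 0.00291). Slc12a2 and Abcc1, a chloride cotransporter and a conjugate exporter that many cells use, were 2.83-fold and 2.56-fold higher. Both lost the call without either b-gal+ library, Slc12a2 also without EpCAM-positive replicate 1 and Abcc1 without replicate 2, with adjusted p up to 0.114 and 0.0912.

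Of 31 genes of the primary cilium and polycystic disease, 10 were called lower and 3 higher (median -0.68). The shares of all genes tested were 17.9% lower and 14.7% higher. The 3 with the largest difference are genes linked to cystic or duct disease, which the list was written to include. Pkhd1, fibrocystin, stood at 0.134 and 0.362 CPM against 41.0 and 292 CPM (-7.22 ± 0.96, adjusted p = 0.00295). Bicc1, an RNA-binding protein, stood at 2.06 and 0.563 CPM against 36.3 and 193 CPM, and Dcdc2a, a doublecortin-domain protein, at 1.70 and 1.85 CPM against 46.3 and 274 CPM. The general ciliary genes of the list mostly were not called. Their count called lower ranged from 4 without b-gal+ replicate 2 to 16 without EpCAM-positive replicate 1, and was 6 without b-gal+ replicate 1 and in both fits of only the 4 libraries.

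Epithelial transcription factors mirrored the macrophage factors. Of 26 tested, 23 were called lower and 1 higher (median -4.04, unchanged to 2 decimals with genes at 0 at their bound). The 1 called higher was Grhl1, a grainyhead factor like Grhl2 below. Sox9, which marks duct and progenitor cells, stood at 0.0894 and 0.201 CPM in b-gal+ cells and at 30.0 and 201 CPM in EpCAM-positive cells (-6.93 ± 0.93, adjusted p = 0.00301). Ehf, an epithelial ETS factor, stood at 0.179 and 0.282 CPM against 41.6 and 156 CPM. Elf3 and Grhl2, an ETS and a grainyhead factor of epithelia, had 0 reads in both b-gal+ libraries, against 10.5 and 74.9 CPM and 9.91 and 48.4 CPM in EpCAM-positive cells, at least 318-fold and 217-fold above 3 reads. Onecut2 and Prox1 were 67.9-fold and 33.8-fold lower in b-gal+ cells. Each factor named here as lower in b-gal+ cells was higher in EpCAM-positive replicate 2 than in replicate 1.

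**Figure D3:**
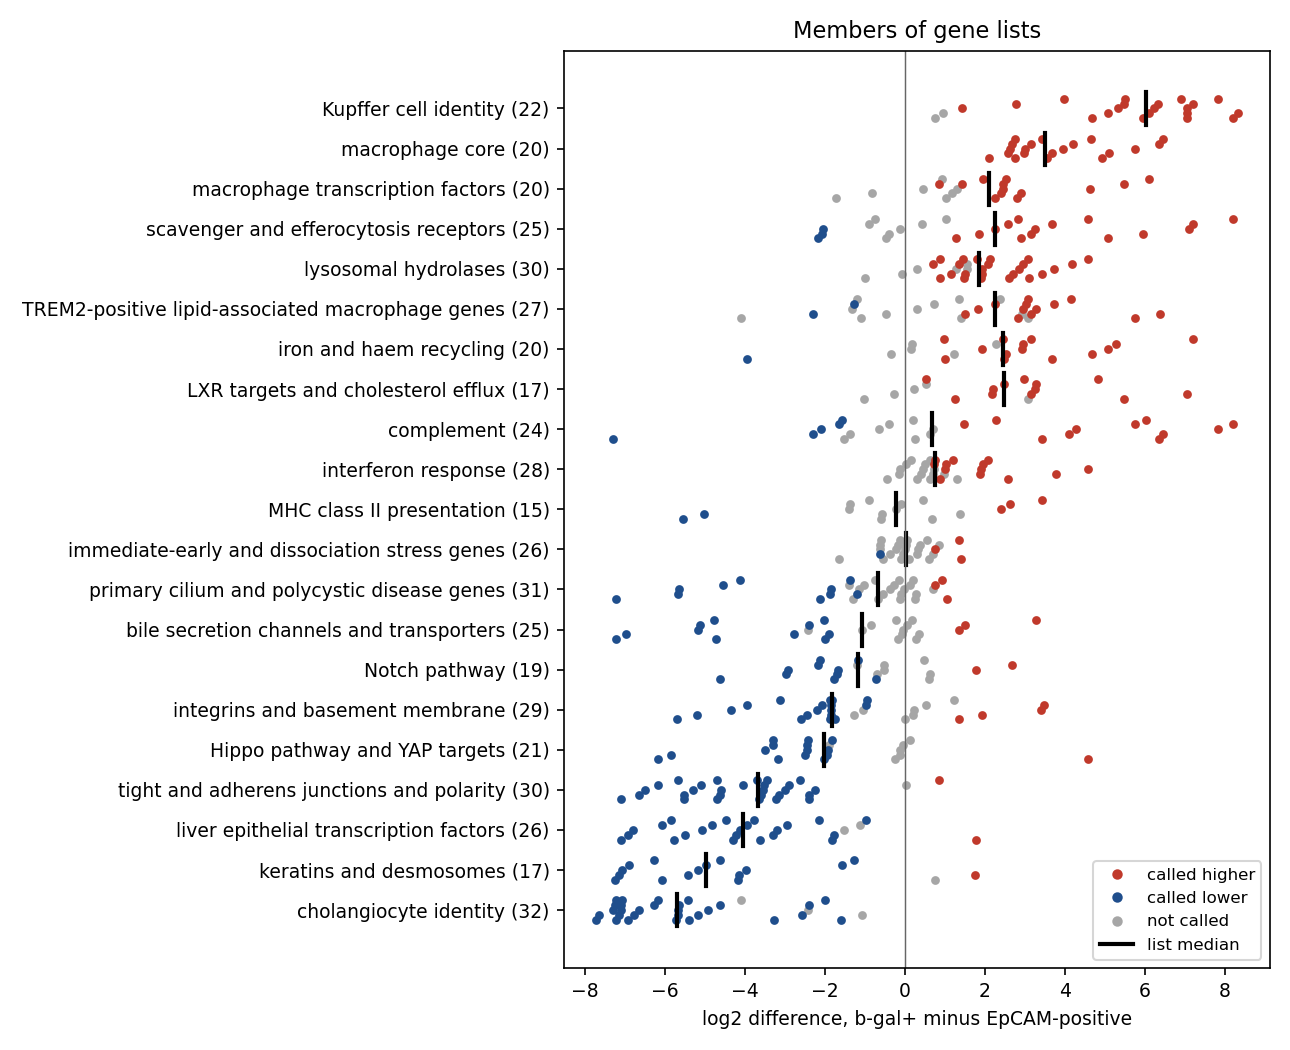
Log2 differences (b-gal+ minus EpCAM-positive) of the tested members of 21 gene lists, 1 point per gene, with the list median as a bar and the number tested in brackets. The Kupffer list centres at 6.03 and the cholangiocyte list at -5.70, and complement, MHC class II and bile transport lists reach both sides.

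Promoters were compared for the 200 genes with the largest difference in each direction among called genes whose level averaged 20 CPM or more. The shares describe letters in RefSeq sequence (GRCm38.p6, 250 bases before each listed start, both strands), and a match is not a site or a cause. The PU.1 and ETS-IRF letters can overlap. The composite ETS-IRF motif, bound by PU.1 with an interferon regulatory factor, was spelled GGAA, any 2 bases, GAAA. It was found in 11 of 158 genes with a listed promoter on the b-gal+ side (6.96%), in 4 of 141 on the EpCAM side (2.84%), in 2.45% of all genes tested and in 2.68% of all genes in the promoter table. The HNF1 motif, GTTAAT, any base, ATT, was found in 0 of 158 and 4 of 141 genes (2.84%), against 0.392% of all genes tested and 0.440% of the table. The PU.1 motif GAGGAAGT was found in 3.80% and 4.96% against 3.05%, and the GRHL motif AACCNGTT in 1.90% and 2.84% against 1.94%. The AP-1 motif TGANTCA was found in 11.4% and 14.2% of genes against 6.04%. With 100 genes a direction, the ETS-IRF shares were 8.75% and 1.45%, and 1 gene of 69 on the EpCAM side held the HNF1 motif. The order of the AP-1 shares then turned, to 12.5% on the b-gal+ side and 10.1% on the EpCAM side, and the GRHL shares were 2.50% and 5.80% and the PU.1 shares 6.25% and 7.25%.

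The matches are shown for 5 genes higher in b-gal+ cells and for the 4 HNF1 genes, with the matched letters in capitals and 10 bases on each side, read along the gene's strand, since these are the letters that the counts above rest on. A match on the other strand appears as the reverse complement. The genes were chosen after their matches and values were seen.
Folr2 (chr7:101857307-101857336, minus strand): taaatcaccaGGAAGTGAAActcttcaatg
Timd4 (chr11:46810717-46810746, plus strand): cggcagaaagGGAAGTGAAAgttgagcgtc
Lilra5 (chr7:4237589-4237618, plus strand): aggagggctgTTTCCCTTCCtgtgtgtact
Cmklr1 (chr5:113643706-113643735, minus strand): gttcagaccaTTTCTCTTCCttgtgattgg
Bank1 (chr3:136326113-136326142, minus strand): gcctgagcaaTTTCACTTCCcccagcaagg
Pkhd1 (chr1:20618117-20618146, minus strand): agtggctcgcGTTAATTATTaaacttgccc
Cp (chr3:19956846-19956875, plus strand): gttttctaaaAATCATTAACaatgacatat
Nr5a2 (chr1:136960665-136960694, minus strand): ccttttctgaGTTAATCATTtctttgccat
Habp2 (chr19:56287836-56287865, plus strand): ttgatgcctaGTTAATAATTtgcatcctct

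Folr2 and Timd4, a phosphatidylserine receptor of resident macrophages, hold the same 10 letters, GGAAGTGAAA, 136 and 72 bases before their starts. Timd4 stood at 745 and 784 CPM in b-gal+ cells and at 48.6 and 10.2 CPM in EpCAM-positive cells. Lilra5, an activating immunoglobulin-like receptor, stood at 274 and 334 CPM against 6.26 and 0.598 CPM, and Cmklr1, the chemerin receptor, at 207 and 219 CPM against 20.3 and 6.99 CPM. Of the HNF1 genes, Pkhd1 holds the motif 79 bases before its start. Nr5a2, a nuclear receptor of bile acid synthesis genes, stood at 7.25 and 2.65 CPM against 32.0 and 62.2 CPM, and Habp2, a secreted protease, at 1.61 and 2.86 CPM against 23.2 and 121 CPM. Pkhd1, Cp and Habp2 were higher in EpCAM-positive replicate 2 than in replicate 1 by more than 4-fold, and Nr5a2 by less.

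Notch and Hippo genes were called mostly lower in b-gal+ cells. Over all genes tested, 14.7% were called higher and 17.9% lower. Of 19 Notch pathway genes, 10 were lower and 2 higher (median -1.18), and 3 were lower without b-gal+ replicate 2. Between the EpCAM-positive libraries, 9 of the 19 were higher in replicate 1 and 10 in replicate 2. Several members are endothelial genes, and 12 of 16 endothelial markers were also lower in b-gal+ cells. The part of endothelial cells in the Notch counts was not tested. Jag1, the Notch ligand of portal cells and ducts, stood at 7.51 and 4.06 CPM against 26.3 and 79.8 CPM (-2.94 ± 0.55, adjusted p = 0.00841; 0.0614 without b-gal+ replicate 2). Notch4, a receptor of endothelium, stood at 33.7 and 24.6 CPM against 131 and 126 CPM (-2.14 ± 0.31, adjusted p = 0.00372), and at 264 and 331 CPM in b-gal- cells. Dll4, a Notch ligand of endothelium, stood at 28.0 and 15.7 CPM against 83.0 and 64.2 CPM (adjusted p = 0.00989, 0.0619 without b-gal+ replicate 2), and at 209.9 and 194 CPM in b-gal- cells. Lfng, a glycosyltransferase that tunes Notch receptors, was higher in b-gal+ cells, at 161 and 139.8 CPM against 60.1 and 31.9 CPM (1.76 ± 0.29, adjusted p = 0.00538), as was Hey1, a Notch target, at 33.6 and 17.7 CPM against 2.61 and 4.41 CPM (adjusted p = 0.0151), whose call was lost without EpCAM-positive replicate 1 or b-gal+ replicate 1 (up to 0.0907). Notch2 stood at 169 and 167 CPM against 232 and 256 CPM and was not called (adjusted p = 0.293).

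Of 21 Hippo pathway genes and targets of YAP, the coactivator that senses cell contact and stretch, 14 were lower and 1 higher (median -2.02). Without b-gal+ replicate 1 and without b-gal+ replicate 2 the lower genes numbered 9 and 7. Wwc1, the upstream regulator Kibra, stood at 0.358 and 0.603 CPM against 27.8 and 177 CPM (-6.19 ± 0.78, adjusted p = 0.00252), and Tead1, the DNA-binding partner of YAP, at 9.79 and 4.99 CPM against 42.3 and 126 CPM (-3.29 ± 0.51). The target Ankrd1 had 1 and 0 reads in the b-gal+ libraries and 9.18 and 94.1 CPM in EpCAM-positive cells. The higher gene was Axl, the receptor for Gas6 with which macrophages take up dying cells, at 1625 and 1718 CPM against 115 and 42.4 CPM (4.57 ± 0.44, adjusted p = 0.00156). Its ligand Gas6 stood at 155 and 102 CPM in b-gal+ cells and at 278 and 973 CPM in EpCAM-positive cells (-2.04 ± 0.62, adjusted p = 0.0432), a call that was lost in 11 alternatives, with adjusted p up to 0.208. EpCAM-positive replicate 1 was the only library that could be left out without losing it.

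Integrin and basement membrane genes were called mostly lower in b-gal+ cells, beside 17.9% of all genes tested called lower and 14.7% higher. Of 29 genes of integrins and basement membrane, 18 were lower and 4 higher (median -1.82), and 7 were lower without b-gal+ replicate 2 and 11 without EpCAM-positive replicate 2. Itga3 and Itgb4, chains of different laminin-binding integrins of epithelia, stood at 1.57 and 1.13 CPM against 31.2 and 144 CPM, and at 1.07 and 0.885 CPM against 12.4 and 69.9 CPM. Lama5, a laminin chain, was 8.68-fold lower in b-gal+ cells. Itgb5 and Itgav, chains of a vitronectin receptor, were higher: Itgb5 stood at 779.6 and 862 CPM against 88.5 and 60.4 CPM (3.48 ± 0.40, adjusted p = 0.00208), and Itgav at 271 and 256 CPM against 68.3 and 69.1 CPM (1.93 ± 0.20, adjusted p = 0.00182). Itgal, a chain of the leukocyte integrin LFA-1, was 10.5-fold higher (adjusted p = 0.0545 with edgeR on the 4 libraries).

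Ligands and receptors were then read together. Of 39 ligands tested, 7 were called higher in b-gal+ cells and 12 lower (median -0.25). Of 42 receptors, 9 were called higher and 15 lower (median -0.95). The shares of all genes tested were 14.7% called higher and 17.9% lower. The counts of ligands and receptors called higher were near that share. Without b-gal+ replicate 2, the ligands and receptors called lower numbered 3 and 6. Csf1, the growth factor of macrophages, stood at 34.0 and 29.6 CPM in b-gal+ cells and at 88.1 and 98.5 CPM in EpCAM-positive cells (-1.54 ± 0.29, adjusted p = 0.00865; 0.0652 without b-gal+ replicate 2). Its receptor Csf1r, given above, lay the other way. The ligand was thus higher in the EpCAM-positive libraries and the receptor in the b-gal+ libraries. In b-gal- cells Csf1 stood at 201 and 299 CPM, above both EpCAM-positive libraries. A higher level than in b-gal+ cells was therefore not particular to the EpCAM gate, and the cell source of Csf1 was not tested.

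Igf1, insulin-like growth factor 1, stood at 717 and 495 CPM in b-gal+ cells and at 33.4 and 33.1 CPM in EpCAM-positive cells, 17.7-fold higher (4.14 ± 0.35, adjusted p = 0.00114). Il10, an anti-inflammatory cytokine, stood at 92.4 and 87.8 CPM against 9.48 and 4.11 CPM (3.74 ± 0.38, adjusted p = 0.00174). Both chains of its receptor were also higher in b-gal+ cells. Il10rb stood at 286 and 327 CPM against 91.1 and 80.1 CPM (1.83 ± 0.14, adjusted p = 0.000878), and Il10ra at 345 and 482 CPM against 181 and 85.8 CPM (adjusted p = 0.0147, up to 0.0896 without b-gal+ replicate 2 and in fits of the 4 libraries). Il18, which is cut by caspase-1, stood at 70.9 and 59.0 CPM against 10.0 and 8.26 CPM, and Pdgfb, which recruits stellate cells, at 70.0 and 71.0 CPM against 22.4 and 18.9 CPM. Tgfb1, transforming growth factor β1, stood at 302 and 237 CPM against 188 and 111 CPM (0.88 ± 0.27, adjusted p = 0.0462), the weakest of these calls, with adjusted p up to 0.208 in the 13 alternatives that ended it. It was lost without each library in turn except EpCAM-positive replicate 1. Il1b stood at 1099 and 1007 CPM against 615 and 194 CPM and was not called (adjusted p = 0.0942), but it was called higher without EpCAM-positive replicate 1 (0.0239).

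On the EpCAM side, Tgfa, a ligand of the EGF receptor, stood at 4.11 and 2.61 CPM in b-gal+ cells and at 21.5 and 33.4 CPM in EpCAM-positive cells (-2.85 ± 0.28, adjusted p = 0.00162). Il33, an alarmin of epithelium and endothelium, stood at 6.80 and 5.15 CPM against 19.5 and 23.2 CPM (-1.76 ± 0.25). Vegfa, vascular endothelial growth factor A, stood at 20.3 and 10.9 CPM against 65.6 and 266 CPM (-3.11 ± 0.69, adjusted p = 0.0149), and the call was lost without b-gal+ replicate 2 and in fits of the 4 libraries, up to 0.096. All 3 ligands had non-overlapping libraries. Receptors with the largest difference on this side were Fgfr3, at 4.29 and 2.57 CPM against 100.3 and 753 CPM (-6.17 ± 0.84, adjusted p = 0.00319), and Met, the hepatocyte growth factor receptor, at 1.48 and 2.29 CPM against 32.5 and 75.1 CPM (-4.41 ± 0.47, adjusted p = 0.00182). Osmr and Il1r1, the receptors for oncostatin M and interleukin 1, were 4.04-fold and 4.56-fold lower in b-gal+ cells. Tgfbr1, on the other hand, stood at 349 and 510.4 CPM against 114 and 72.5 CPM (2.21 ± 0.30, adjusted p = 0.0032).

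**Figure D4:**
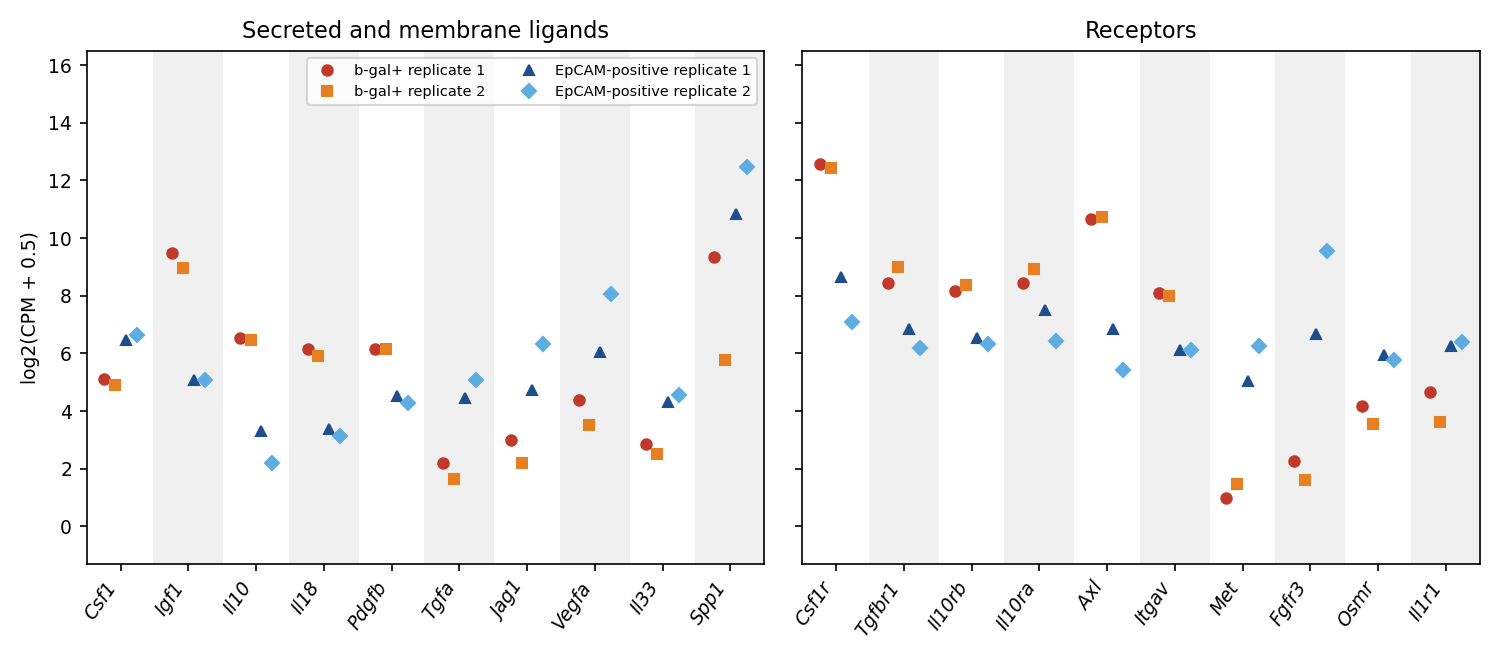
Levels of 10 ligands (left) and 10 receptors (right) as log2(CPM + 0.5), 1 point per library. Csf1 is higher in the EpCAM-positive libraries and Csf1r in the b-gal+ libraries, and Spp1 shows the wide spread of the b-gal+ pair.

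The EpCAM-positive replicates differed from each other far more than the b-gal+ replicates. Among genes with a pair mean of at least 20 CPM, 299 of 7125 (4.20%) differed by more than 4-fold between the EpCAM-positive libraries, 87 higher in replicate 1 and 212 higher in replicate 2. In the b-gal+ pair 36 of 6706 genes (0.537%) did so. Of the 299 genes, 191 were called lower in b-gal+ cells and 30 higher, beside 17.9% and 14.7% of all genes tested. The 299 were chosen by their level in the EpCAM-positive pair alone. That choice favours genes called lower in b-gal+ cells. Duct content went one way and immune content the other. The summed level of the cholangiocyte list was 7165 and 22728 CPM in EpCAM-positive replicates 1 and 2, and 30 of its 32 members were higher in replicate 2, with a median ratio of 4.87. The macrophage core list summed to 5427 and 1499.5 CPM, and its 20 members were higher in replicate 1 without exception, with a median ratio of 4.22. The neutrophil list summed to 431 and 27.8 CPM. The hepatocyte list summed to 747 and 5146 CPM, higher in replicate 2, with Alb, albumin, at 652 and 4704 CPM. In b-gal+ cells the neutrophil list (225 and 154 CPM) and the hepatocyte list (343 and 777 CPM) leaned the same way. There the cholangiocyte list (1361 and 561 CPM) and the macrophage core list (35812 and 37208 CPM) did not.

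**Figure D5:**
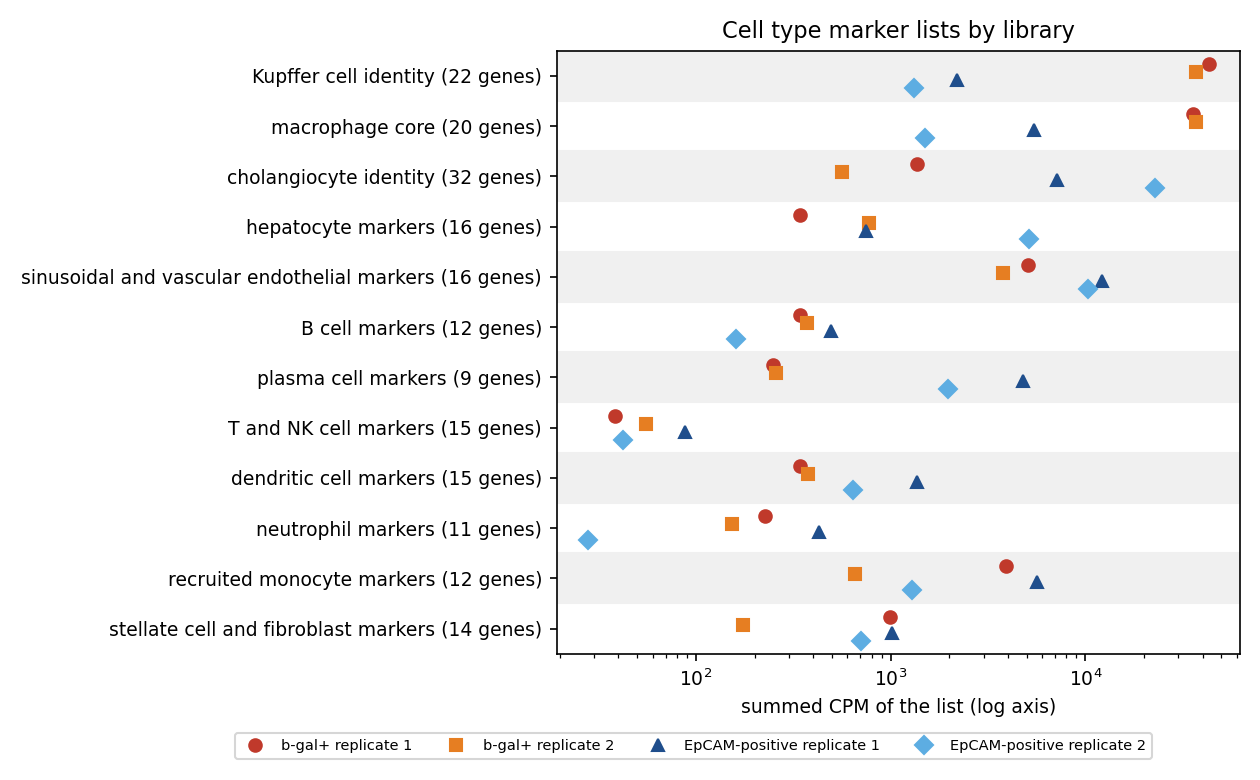
Summed CPM (log axis) of 12 cell type marker lists in each of the 4 libraries. EpCAM-positive replicate 2 is the highest of the 4 for cholangiocyte and hepatocyte lists, and replicate 1 exceeds replicate 2 for the Kupffer, macrophage, B cell, plasma cell, dendritic cell, neutrophil and monocyte lists.

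Single genes show the size of this gap. Krt17, a keratin of stressed and basal epithelia, stood at 7.08 and 78.9 CPM in EpCAM-positive replicates 1 and 2, Tmem45a at 8.08 and 156 CPM, and S100a9, a neutrophil granule protein, at 159 and 8.19 CPM. S100a9 was also higher in replicate 1 of the b-gal+ pair, at 56.5 and 3.86 CPM. Cyp26b1, which degrades retinoic acid, stood at 90.5 and 1253 CPM in EpCAM-positive cells and at 28.0 and 275 CPM in b-gal+ cells, higher in replicate 2 of both. Of the 299 genes, 20 differed by more than 4-fold the same way in the b-gal+ pair. The Y-linked gene Ddx3y stood at 59.3 and 0 CPM in EpCAM-positive and at 109 and 0 CPM in b-gal+ cells, and Xist at 239 and 774 CPM and at 108 and 851 CPM. The Y-linked transcripts Eif2s3y, Kdm5d and Uty were likewise at 0 in replicate 2 of each population, as in the other 4 libraries. Replicate 1 of each population thus held Y-linked transcripts and replicate 2 none, and the part of this in the spread was not tested. Xist and these 3 Y-linked genes were chosen after Ddx3y was seen.

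The EpCAM-positive libraries also held transcripts of cells other than cholangiocytes, and these entered the comparison. Of 9 plasma cell genes, 7 were lower in b-gal+ cells and none higher (median -3.00). Jchain, the joining chain of secreted antibodies, stood at 2.33 and 2.33 CPM in b-gal+ cells and at 3783 and 1524 CPM in EpCAM-positive cells, 849-fold lower (-9.73 ± 0.53, adjusted p = 0.000552). It had the largest fitted difference of the 14404 genes tested. Mzb1, a chaperone of antibody-secreting cells, stood at 0.0894 and 0.402 CPM against 196 and 50.4 CPM. Of 12 B cell genes, 9 were lower and 2 higher (median -3.21), with Ms4a1, the B cell membrane protein CD20, at 0.984 and 0.885 CPM against 77.4 and 16.2 CPM (-4.65 ± 0.67, adjusted p = 0.00368). The 2 higher ones were Bank1, a B cell adaptor, at 263 and 249.7 CPM against 48.8 and 10.8 CPM, and Cd22, an inhibitory lectin, at 62.6 and 98.7 CPM against 37.4 and 17.4 CPM. Bank1 lost the call without either b-gal+ library (adjusted p up to 0.0588), and Cd22 without b-gal+ replicate 2 or EpCAM-positive replicate 2 (up to 0.135). The summed B cell list was 344 and 374 CPM in b-gal+ cells and 496 and 161 CPM in EpCAM-positive cells.

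Dendritic cell genes were lower in b-gal+ cells in 8 of 15 (median -2.75). Flt3, the receptor of dendritic cell precursors, stood at 1.48 and 0.684 CPM against 186 and 53.1 CPM (-6.03 ± 0.60, adjusted p = 0.00165), and Itgae, the integrin CD103, at 0.984 and 1.37 CPM against 174 and 31.2 CPM. Endothelial genes were lower in 12 of 16 and higher in none (median -1.91). Emcn, endomucin, stood at 13.6 and 11.2 CPM against 53.1 and 58.4 CPM (-2.13 ± 0.19, adjusted p = 0.00129), and Dnase1l3, a secreted nuclease, at 345 and 274 CPM against 1317 and 1163 CPM (-2.01 ± 0.35; adjusted p = 0.0541 without b-gal+ replicate 2). The endothelial list summed to 5083 and 3776 CPM in b-gal+ cells and to 12166 and 10343 CPM in EpCAM-positive cells, and without b-gal+ replicate 2 its count of lower genes was 2. Unlike duct genes, endothelial genes were therefore present in all 4 libraries. T and NK cell genes were lower in 8 of 15, with list sums of at most 88.3 CPM, and 1 was higher. The lower ones numbered 0 without b-gal+ replicate 1, 1 without b-gal+ replicate 2 and 4 without EpCAM-positive replicate 1. The part of these cells in the lists shared with immune cells, such as H2-Oa, Itgax and Irf8, was not tested.

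Few members of the next lists were called, beside 32.5% of all genes tested called in either direction (14.7% higher, 17.9% lower). The counts called higher in the stress and glycolysis lists were near the share of all genes. Of 26 immediate-early and dissociation stress genes, 3 were higher, 1 lower and the median was 0.01. Fos stood at 2750.2 and 2561 CPM in b-gal+ cells and at 2009 and 3048 CPM in EpCAM-positive cells. Dusp1, a phosphatase that ends stress kinase signals, was called higher, at 2715 and 3029 CPM against 1084 and 1087 CPM (1.40 ± 0.26, adjusted p = 0.00781, up to 0.183 in fits of only the 4 libraries). Of 23 cell cycle genes 3 were lower and none higher, with a median of -1.12 and list sums of 492 and 378 CPM against 1042 and 654 CPM. In 11 of the 23 the libraries did not overlap and were lower in b-gal+ cells, which held for 34.4% of all genes tested. Those called included Ccnd1, cyclin D1, at 86.1 and 75.3 CPM against 165 and 274 CPM (-1.40 ± 0.24, adjusted p = 0.00635; 0.0544 without b-gal+ replicate 2). Of 16 glycolysis genes 2 were higher (median 0.41), and the list summed to 2177 and 1646 CPM against 1512 and 895 CPM. Hk3, a hexokinase of myeloid cells, stood at 419 and 352 CPM against 37.8 and 7.89 CPM (4.42 ± 0.74, adjusted p = 0.00562). None of 14 stellate cell and fibroblast genes was called in either direction, and their list summed to 989 and 175 CPM in b-gal+ cells and to 1021 and 708 CPM in EpCAM-positive cells.

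The b-gal- F4/80high cells were sorted by the same F4/80 label. Their endothelial list summed to 27913 and 32903 CPM and their macrophage core list to 9606 and 4375 CPM, against 5083 and 3776 CPM and 35812 and 37208 CPM in b-gal+ cells. The part of endothelial RNA in the differences from b-gal- cells was not tested. This second comparison shares the b-gal+ libraries with the first, so that the values are given side by side only. Clec4f stood at 436 and 566 CPM in b-gal- cells, between the b-gal+ and the EpCAM-positive levels, and the b-gal+ minus b-gal- log2 difference was 4.23 (adjusted p = 0.0106). Vsig4 stood at 112 and 127 CPM there, with a difference of 4.18 (adjusted p = 0.0109). Trem2 stood at 41.0 and 4.55 CPM in b-gal- cells (2.88, adjusted p = 0.145) and Glb1 at 68.5 and 49.7 CPM (0.84, adjusted p = 0.0772), and neither was called in that comparison, in which 10.3% of genes were called higher. Epcam stood at 0.845 and 1.47 CPM in b-gal- cells.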

How the data were processed

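RNA was sequenced in 8 libraries, 2 for each of the 4 populations (the b-gal+ and the b-gal- part of the F4/80high gate, the EpCAM gate, and pelleted hepatocytes). The submitters' processing notes name HTSeq and the builds GRCm38.p4 and mm10. The aligner, gene annotation, versions and strand setting are not given in the sources used here. Of the deposited values, hepatocyte replicate 1 holds read counts per gene, and the other 7 files hold read counts multiplied by 1 factor per library, written with decimal commas (a unit entered as "other"). Every value of the 4 libraries compared was a whole multiple of its library's step, which lay between 1.080626 and 1.357223, within a tolerance of 0.01 reads, so that whole reads were recovered. Rows whose symbol was only digits, 0.0973 to 0.182% of reads, were left out.

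Reads were scaled by TMM (edgeR 4.0.16), genes were filtered with filterByExpr, and log2(CPM + 0.5) was fitted with limma 3.58.1 (R 4.3.3, trended prior) on all 8 libraries with 1 term per group. The contrast was b-gal+ minus EpCAM-positive, with Benjamini-Hochberg adjustment over 14404 genes and a threshold of 0.05. edgeR and DESeq2 1.42.0 were run on the recovered reads as alternatives, and edgeR on only the 4 libraries was added after seeing the data. The other alternatives were DESeq2 size factors, the deposited scaling, pseudocounts of 0.1 and 2, no filter, only the 4 libraries, a replicate block and leaving out each library. The scripts were tested on simulated data. The members and gene lists were chosen with earlier results of these data known. Genes named are the markers, the most changed genes (mean of at least 20 CPM, no overlap between groups), the most changed and most abundant list members and the most unequal genes of the EpCAM-positive pair. Promoters were matched by symbol to RefSeq sequence, and 790 of 799 list entries matched a symbol in the files. Some measured genes are not reported here.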

Additional observations from a re-analysis of the deposited data

How the results depend on the processing

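Of 130 called genes whose difference is given, 97 kept their call in all 18 alternatives, 33 lost it in at least 1 and 0 reversed. Fitting only the 4 libraries gave 1234 genes higher and 1517 lower, with edgeR 995 and 1421. At 2-fold or more, 1483 were lower with only the 4 libraries, and edgeR there gave 890 higher and 1408 lower. The deposited scaling gave 1285 higher. Leaving out each library gave 926 to 2447 genes higher and 1027 to 3210 lower, at 2-fold or more 839 to 1699 higher and 1016 to 2761 lower. Called list members were 10 for the macrophage core, 7 for TREM2-positive macrophage genes, 9 for Hippo and 5 for T and NK cells with edgeR on the 4 libraries, and with limma and edgeR there 14 and 12 for lysosomal hydrolases, 6 and 6 for interferon response and cilium, 10 and 10 for integrins and 7 and 7 for ligands. The deposited scaling gave 8 for interferon response. Leaving out each library gave 11 to 20 for the macrophage core, 14 to 24 for lysosomal hydrolases, 7 to 14 for TREM2-positive macrophage genes, 6 to 13 for interferon response, 17 to 28 for junctions, 4 to 16 for cilium, 3 to 9 for Notch, 7 to 15 for Hippo, 7 to 17 for integrins, 3 to 12 for ligands, 6 to 16 for receptors, 2 to 13 for endothelium and 0 to 8 for T and NK cells. The cause was not tested.

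Uncalled genes changed sign when 1 library was left out. The log2 difference ran from -1.04 to 0.64 for Cd74 and from -1.50 to 0.40 for H2-Aa, the highest without b-gal+ replicate 1, positive also without EpCAM-positive replicate 1 (0.45 and 0.11). It ran from -0.57 (without EpCAM-positive replicate 2) to 1.48 for Irf8 and from -0.19 (without EpCAM-positive replicate 1) to 0.41 for Fos. For LacZ it ran from -0.52 to 0.19 (0.03 without b-gal+ replicate 1) and for Lgr5 from -0.25 to 0.23. Under the deposited scaling Fos stood at -0.23. Of the uncalled genes given, 5 gained a call with DESeq2 and 8 without EpCAM-positive replicate 1. With the replicate number as a block, 2520 genes were higher and 2930 lower, and Cd38, Gusb, Il1b, Irf5 and Lgals3 gained a call. Same-numbered libraries deviated together in all 6 pairs of groups (r of 0.18 to 0.49 across genes, which are not independent; 0.2565 for b-gal+ and EpCAM-positive), but no label pairs them. Groups of 2 libraries, each a pool of 2 mice, limit every estimate of spread, and genes under 3 reads in a library cannot be ranked.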

Other observations

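Scavenger and efferocytosis receptors were higher in b-gal+ cells in 15 of 25 tested genes and lower in 3, with a median log2 difference of 2.24. Those lower were Gas6, the bridging ligand, and Havcr1 and Tyro3, receptors for phosphatidylserine and for bridged dying cells. Of 12 markers of recruited monocytes, 1 was called lower and none higher (median -0.95). It was Ly6c2, at 1.12 and 0.322 CPM in b-gal+ cells and at 52.6 and 15.7 CPM in EpCAM-positive cells (-4.67 ± 0.63, limma adjusted p = 0.00308). Of 11 neutrophil markers 1 was called higher (median -1.07), Csf3r, the receptor for granulocyte colony-stimulating factor, at 101 and 143 CPM against 30.0 and 11.6 CPM. Its call was lost without either b-gal+ library or EpCAM-positive replicate 2 (limma adjusted p up to 0.0963).

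Markers of rarer cells were called in some lists and not in others, beside 32.5% of all genes tested called in either direction. Of 8 megakaryocyte and platelet markers 1 was higher in b-gal+ cells and 3 lower, and neither of the 2 tested erythroid genes was called. Of 6 tested mesothelial markers 2 were lower in b-gal+ cells, Gpm6a, a membrane glycoprotein, at 1.25 and 0.402 CPM against 17.0 and 68.1 CPM, and Upk1b, a uroplakin, at 0.492 and 0.201 CPM against 7.02 and 30.9 CPM. Both were higher in EpCAM-positive replicate 2, while the other 4 tested mesothelial markers were higher in replicate 1. Kit, the stem cell factor receptor, and Gata2, a haematopoietic and endothelial factor, both of the mast cell list, were 5.32-fold and 3.77-fold lower in b-gal+ cells, and their EpCAM-positive pairs were close, at 139 and 119 CPM and at 17.6 and 18.8 CPM. Of 16 hepatocyte markers 1 was called, Fgb, a fibrinogen chain, at 44.9 and 48.1 CPM in b-gal+ cells and at 11.1 and 22.9 CPM in EpCAM-positive cells (limma adjusted p = 0.0168, up to 0.107 without b-gal+ replicate 1 or 2 and in 3 other alternatives).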
